A study of Mus musculus with 32 samples.

Results

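Kidneys of female C57bl/6 mice were compared between Day 5 and Day 3 after cisplatin, with 4 mice on each day, as 8 of the 32 sequenced kidney libraries of the time course. The 8 libraries were taken by their sex and day labels, with no use of any measured value. All mice were wild type (wt), 6–8 weeks old when acquired, and the Day 3 and Day 5 females had received cisplatin, as a single intraperitoneal injection of 20 mg/kg, so both groups share the drug and differ in time. The other groups were females at Day 0 and Day 2 and males on the same 4 days, with 4 mice in each of the 8 groups. The females labelled Day 0 carry cisplatin as their treatment label, whereas the study describes Day 0 mice as healthy, and they served here only as side values. Each library held total RNA of kidney tissue from 1 mouse, and different mice were killed on each day, so no animal was followed over time. In such bulk tissue, fewer cells of a type and less RNA per cell cannot be told apart.

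Cisplatin enters the cells of the proximal tubule, the segment that reabsorbs most of the filtered load, and forms adducts with DNA. DNA damage activates the transcription factor p53, whose targets halt the cell cycle (Cdkn1a), feed back on p53 itself (Mdm2) or promote cell death. Injured tubule cells lose their transporters and switch on genes such as Havcr1 (kidney injury molecule 1) and Lcn2 (neutrophil gelatinase-associated lipocalin), and the following days are the period in which damage either resolves or persists. The comparison of Day 5 with Day 3 addresses which of these transcripts had come down and which were still raised.

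Levels are given as counts-per-million (CPM) of the counts on genes outside the mitochondrial genome, scaled between libraries by TMM factors. Fold changes are log2 fold changes of Day 5 over Day 3 with the standard error (SE) of the edgeR quasi-likelihood fit, and a negative value is a lower level at Day 5. CPM were not divided by gene length, so levels are compared between mice and not between genes.

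Total counts, to 5 digits, were 27146000 to 33729000 in the Day 3 libraries and 18775000 to 29125000 in the Day 5 libraries. Counts on mitochondrial genes, which were removed before normalization, made up 31.6%, 77.9%, 22.2% and 9.30% of the total in Day 5 mice 1 to 4, against 9.24% to 10.5% at Day 3. The mean share was 35.2% ± 29.9 (SD, n = 4) at Day 5 and 9.89% ± 0.715 (SD, n = 4) at Day 3, a difference of 25.3 percentage points (two-sided exact permutation test, p = 0.114, the smallest p that 4 against 4 allows being 0.0286). Day 5 mouse 2 stood apart. It kept 5340600 counts outside the mitochondrial genome against 17029000 to 22669000 in the other Day 5 mice, and its summed level of erythroid genes was 1959 CPM against 44.8 to 142 CPM. Day 3 mouse 2 also stood apart, with a summed level of 30 p53 target genes of 1055 CPM against 3377 to 3904 CPM in the other Day 3 mice and 940 to 1176 CPM at Day 0, and a sum of the tubule injury markers of 2801 CPM against 5226 to 9958 CPM. Values without 1 or both of them are given beside many of the results. Kidney genes were present in all 8 libraries: the proximal tubule transcript Kap lay at 1643 CPM or more and the collecting duct water channel gene Aqp2 at 585 CPM or more. Xist was counted and Y-linked transcripts had 0 counts in all 8.

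**Figure D1:**
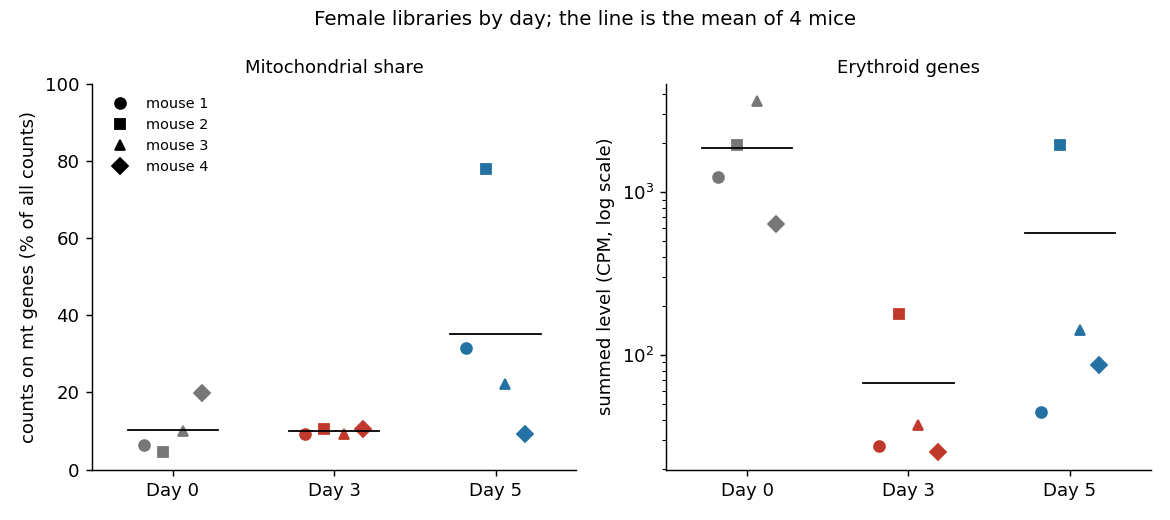
Share of all counts that fell on mitochondrial genes (left, percent) and summed level of erythroid genes (right, CPM, log scale) in each female mouse at Day 0, Day 3 and Day 5; the marker shape gives the mouse number within its group and the line is the mean of 4 mice. Day 5 mouse 2 lies highest of the Day 5 mice on both, at 77.9% and 1959 CPM, and the 4 Day 3 mice lie within 9.24% to 10.5% on the left.

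Of the 16764 genes tested, none differed between Day 5 and Day 3 at a Benjamini-Hochberg adjusted p under 0.05 by edgeR's quasi-likelihood test, neither higher (0%) nor lower (0%) at Day 5, and the smallest adjusted p was 0.404. At an unadjusted p under 0.05 there were 1965 genes (11.7%), of which 1078 were higher at Day 5 (6.43%) and 887 lower (5.29%). All 4 Day 5 values lay above all 4 Day 3 values for 476 genes (2.84%) and below them for 740 genes (4.41%). DESeq2's Wald test on the same counts called 29 of 14088 genes, 17 higher (0.121%) and 12 lower (0.0852%), with adjusted p of 0.028 or more, none of them in the 23 gene lists described here, whereas limma voom with sample quality weights called 0, with 3067 at an unadjusted p under 0.05. The central part of all log2 fold changes, from the first to the third quartile, ran from -0.22 to 0.26, the median SE was 0.23, and the median 95% interval reached 0.51 on each side of the estimate. That interval is not adjusted for the number of genes tested, so it is no limit of what the adjusted test could call. Larger estimates missed the threshold too, such as Lrrc8b at -0.77 (adjusted p = 0.404 by edgeR). A gene that missed the threshold is not shown to be equal on both days.

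Of the p53 target genes none was called between Day 5 and Day 3, while 12 of them were called higher at Day 5 than at Day 0 by edgeR, against 0.196% of all genes. With 1 Day 0 mouse left out that count was 3 to 20, against 0.0419% to 4.74% of all genes. Of the 30 genes in the list, all tested, 18 had a lower and 12 a higher estimate at Day 5, and the median log2 fold change was -0.14 (0.02 over all genes). At an unadjusted p under 0.05, 0 were higher and 1, Rrm2b, a subunit of the enzyme that makes deoxynucleotides, was lower, with a log2 fold change of -0.46. Without Day 3 mouse 2, whose p53 targets were low, the median was -0.33, and without Day 5 mouse 2 it was -0.05.

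Cdkn1a, which encodes the cell cycle inhibitor p21 (ENSMUSG00000023067, chr17:29090976-29100727, GRCm38), lay at 394, 143, 250.2 and 250.2 CPM in Day 5 mice 1 to 4, at 472, 30.99, 396 and 433 CPM in Day 3 mice 1 to 4, and at 10.1 to 27.4 CPM at Day 0. All 4 Day 5 mice and 3 of the 4 Day 3 mice lay above every Day 0 mouse by a wide margin, and Day 3 mouse 2 lay close to them. The log2 fold change from Day 3 to Day 5 was -0.34 (SE 0.64, adjusted p = 0.852), and without Day 3 mouse 2 it was -0.73, at an unadjusted p of 0.025. Ccng1 (cyclin G1, ENSMUSG00000020326, chr11:40748552-40755311), which recruits a phosphatase that acts on Mdm2, had a like pattern, with 909, 471, 732 and 703 CPM at Day 5 and 1058, 216, 987 and 1042 CPM at Day 3, against 145 to 216 CPM at Day 0. The fold change of Ccng1 was -0.21 (SE 0.42, adjusted p = 0.861), and -0.53 without Day 3 mouse 2, at an unadjusted p of 0.0387. Mdm2, the ubiquitin ligase that degrades p53 (ENSMUSG00000020184, chr10:117688875-117710758), lay at 141, 69.9, 96.3 and 118 CPM at Day 5 and 165, 49.3, 134 and 157 CPM at Day 3 (Day 0, 28.1 to 41.8 CPM), with a fold change of -0.22 (SE 0.34) and -0.50 without Day 3 mouse 2. In each of these genes the days overlapped, since Day 3 mouse 2 was the lowest of all 8, whereas the other 3 Day 3 mice were each above Day 5 mice 2 and 3.

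Plk2 and Gdf15 did not have a lower estimate at Day 5. Plk2, a stress-induced kinase of the polo family, lay at 50.9, 41.0, 45.8 and 60.4 CPM at Day 5 and 64.3, 13.4, 56.1 and 57.8 CPM at Day 3, with a fold change of 0.08 (SE 0.38) and -0.24 without Day 3 mouse 2. Gdf15, a secreted stress cytokine, lay at 207, 70.8, 176 and 149 CPM and 199, 15.8, 112 and 207 CPM, with a fold change of 0.19 (SE 0.63) and -0.18 without that mouse. Apart from Day 3 mouse 2 the values of both genes were interleaved between the days. Btg2, an antiproliferative p53 target, had a fold change of 0.14 (SE 0.45), which turned to -0.19 without Day 3 mouse 2, and the largest estimate among the 30 in either direction was that of Eda2r, a receptor of the tumor necrosis factor receptor family, at -0.84 (SE 0.65) and -1.23 without Day 3 mouse 2.

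The promoters of Cdkn1a, Ccng1 and Mdm2 are shown because these p53 targets lay above all Day 0 mice in every Day 5 mouse and their promoters hold matches to the p53 binding motif. Each run is the 250 bases before an annotated start, on the strand of the gene, from RefSeq on GRCm38.p6, with matches to the p53 consensus decamer in capitals. A second Cdkn1a start in RefSeq, whose window is chr17:29093519-29093768, held no match and is not printed. The Cdkn1a window shown is chr17:29090729-29090978 on the plus strand, that of Ccng1 is chr11:40755287-40755536 on the minus strand, and that of Mdm2 is chr10:117710759-117711008 on the minus strand.
Cdkn1a: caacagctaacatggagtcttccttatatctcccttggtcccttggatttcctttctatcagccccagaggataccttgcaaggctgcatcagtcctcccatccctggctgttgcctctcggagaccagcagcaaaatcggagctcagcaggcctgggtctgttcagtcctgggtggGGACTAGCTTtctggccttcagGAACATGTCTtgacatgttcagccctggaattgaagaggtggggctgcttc
Ccng1: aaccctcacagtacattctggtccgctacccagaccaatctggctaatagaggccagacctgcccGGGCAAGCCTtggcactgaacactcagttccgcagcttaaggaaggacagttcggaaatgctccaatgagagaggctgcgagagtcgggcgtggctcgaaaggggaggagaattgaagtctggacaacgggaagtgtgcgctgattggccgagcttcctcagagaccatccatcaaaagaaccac
Mdm2: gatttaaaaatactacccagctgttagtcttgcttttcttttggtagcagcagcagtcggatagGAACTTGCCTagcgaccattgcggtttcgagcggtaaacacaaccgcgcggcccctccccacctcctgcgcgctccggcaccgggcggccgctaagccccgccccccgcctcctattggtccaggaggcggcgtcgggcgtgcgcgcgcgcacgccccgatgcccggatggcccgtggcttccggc

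The 2 Cdkn1a matches begin 73 and 51 bases before the start, the Ccng1 match 185 and the Mdm2 match 186 bases before it. The consensus reads the same on both strands, so a search of 1 strand covers both. In windows of 300 bases around the start, 9 of the 22 p53 target genes with a promoter entry held a match (40.9%), among them Aen, Bax, Ei24, Gtse1, Polk and Sesn1, against 2582 of 27025 genes with an entry (9.55%). The windows of Plk2 and Gdf15 held none, which says only that these letters are not in those windows.

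**Figure D2:**
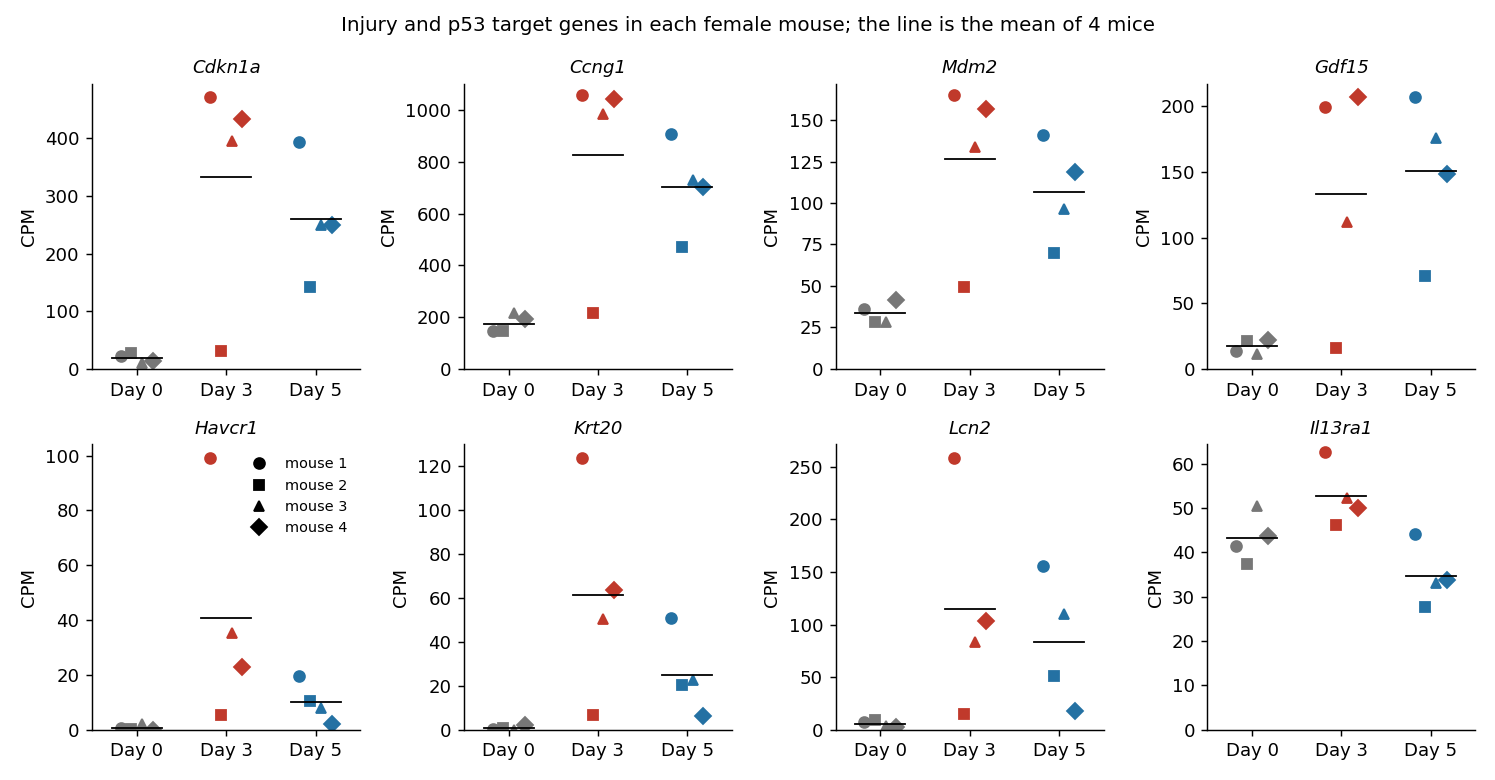
CPM of 4 p53 target genes (upper row) and of 3 tubule injury markers and Il13ra1 (lower row) in each female mouse at Day 0, Day 3 and Day 5; marker shapes give the mouse number and the line is the mean of 4 mice. Day 3 mouse 2 is the lowest Day 3 mouse in all 8 panels, Cdkn1a in the 4 Day 5 mice lies between 143 and 394 CPM, and Il13ra1 is the panel in which all Day 5 mice lie below all Day 3 mice.

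The tubule injury markers were split between genes with lower and with higher estimates at Day 5. Of 25 markers, all tested, none was called, 15 had a lower and 10 a higher estimate, and the median log2 fold change was -0.18, or -0.40 without Day 3 mouse 2. At an unadjusted p under 0.05, 3 were lower (Havcr1, Fgb and Dcdc2a) and 4 higher (Vim, Krt18, Krt19 and Krt7). Havcr1 (ENSMUSG00000040405, chr11:46735080-46779578), a phosphatidylserine receptor on injured proximal tubule cells, lay at 19.7, 10.3, 7.81 and 2.00 CPM in Day 5 mice 1 to 4 and at 99.1, 5.41, 35.4 and 22.9 CPM in Day 3 mice 1 to 4, against 0.0387 to 2.24 CPM at Day 0. Day 3 mice 1, 3 and 4 were above all Day 5 mice, Day 3 mouse 2 lay among them, and Day 5 mouse 4 was within the Day 0 range. Its fold change was -1.996 (SE 0.88, unadjusted p = 0.0493 and adjusted p = 0.425 by edgeR), and -2.38 without Day 3 mouse 2. Krt20, a keratin of injured tubule epithelium, had a like pattern, with 51.1, 20.6, 22.4 and 6.35 CPM at Day 5 and 124, 6.76, 50.6 and 63.8 CPM at Day 3, where Day 5 mouse 1 lay above Day 3 mouse 3 by less than 1 CPM. Krt20 had a fold change of -1.25 (SE 0.81, adjusted p = 0.549).

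Lcn2, an iron-siderophore binding protein released by injured tubules, varied more between mice than between days. It lay at 155, 51.2, 110.1 and 17.8 CPM at Day 5 and 259, 14.7, 83.1 and 103 CPM at Day 3, and its fold change was -0.43 (SE 0.82, adjusted p = 0.856) and -0.81 without Day 3 mouse 2, a direction that turned when Day 3 mouse 1 was left out. Every Day 5 mouse was above the highest Day 0 value of the range 2.98 to 8.87 CPM. Spp1 (osteopontin) lay at 3280.1, 1608, 2101 and 1529 CPM at Day 5 and 6578, 1597, 3205 and 3596 CPM at Day 3, with a fold change of -0.78 (SE 0.41, adjusted p = 0.464), and 3 of the 4 Day 5 mice were in or below the Day 0 range of 1578 to 2220.1 CPM. The fibrinogen chain genes had estimates of -0.95 (Fga), -0.78 (Fgb) and -1.06 (Fgg), which were -1.26, -0.51 and -1.33 without Day 3 mouse 2. The liver makes these chains too, and Fgb was highest in Day 3 mouse 2 among the Day 3 mice (19.6 CPM) and in Day 0 mouse 2 among the Day 0 mice (383 CPM), the mice with the highest sums of hepatocyte genes in their groups (528 and 15102 CPM). The part of these in the values was not tested. Clu, Vcam1, Sox9 and Timp1 had fold changes of -0.36, -0.19, 0.32 and 0.20, with SE of 0.32, 0.24, 0.46 and 0.65. Without Day 3 mouse 2 these fold changes were -0.58, -0.35, 0.05 and -0.15.

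Vim, Krt18, Krt19 and Krt7 had higher estimates at Day 5, whereas the keratin gene Krt20 had a lower one, and none of them was called. Vim (vimentin, ENSMUSG00000026728, chr2:13573927-13582826), found in mesenchymal cells and in dedifferentiated tubule cells, lay at 114, 108, 100.1 and 84.0 CPM at Day 5 and 79.3, 66.6, 78.6 and 73.0 CPM at Day 3, so that all Day 5 mice were above all Day 3 mice. The estimate was 0.49 (SE 0.14, unadjusted p = 0.00588 and adjusted p = 0.404 by edgeR), and 0.43 without Day 5 mouse 2. The Day 0 mice lay at 81.4 to 103 CPM, which overlaps the Day 5 values. The epithelial keratins Krt18, Krt19 and Krt7 had fold changes of 0.75, 0.63 and 0.37, with unadjusted p of 0.0207, 0.0415 and 0.0425 by edgeR. Each of these keratins overlapped between the days, since Vim was the 1 marker of the 25 with all Day 5 mice above all Day 3 mice (2.84% of all genes).

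Cytokine and chemokine genes did not move in 1 direction. Of the 31 listed, 21 could be tested, none was called, no gene was at an unadjusted p under 0.05 in edgeR, 12 had a higher and 9 a lower estimate, and the median was 0.04, or -0.15 without Day 5 mouse 2 and -0.10 without Day 3 mouse 2. Cxcl1, a neutrophil chemoattractant, lay at 8.73, 6.75, 4.51 and 0.882 CPM in Day 5 mice 1 to 4 and 16.3, 0.975, 6.96 and 12.1 CPM in Day 3 mice 1 to 4, with Day 5 mouse 4 and Day 3 mouse 2 within the Day 0 range of 0 to 1.59 CPM. Its fold change was -0.77 (SE 0.78, adjusted p = 0.703), and -1.16 without Day 3 mouse 2. Lif, a cytokine of the interleukin 6 family, lay at 15.5, 9.64, 8.18 and 4.82 CPM and 21.9, 1.54, 12.4 and 19.6 CPM, and every Day 5 mouse was above the highest Day 0 mouse at 0.580 CPM. The neutrophil chemoattractant Cxcl2 had a fold change of -1.46 (SE 0.89), the interleukin 1 antagonist Il1rn -0.97 (SE 0.75) and Ccl20 -0.54 (SE 1.07, and -0.95 without Day 3 mouse 2). The chemokine genes Ccl2, Ccl6 and Ccl7 had estimates of 0.96 (Ccl2, SE 0.62), 0.72 (Ccl6, SE 0.63, -0.20 without Day 5 mouse 1) and 2.12 (Ccl7, SE 0.96, unadjusted p = 0.0504). Tnf was too low to be tested.

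Among the receptors and signalling genes of cytokines, 16 of 22 tested had a lower estimate at Day 5, with a median of -0.17, or -0.32 without Day 3 mouse 2. None was called, 2 were lower and 0 higher at an unadjusted p under 0.05 in edgeR, and 3 had all Day 5 values below all Day 3 values, which held for 4.41% of all genes. Il13ra1, a receptor chain for interleukins 4 and 13 (ENSMUSG00000017057, chrX:36112110-36171259), lay at 44.2, 27.8, 33.2 and 33.8 CPM at Day 5 and 62.7, 46.1, 52.3 and 50.1 CPM at Day 3. The groups did not overlap, with the highest Day 5 mouse below the lowest Day 3 mouse, and the Day 0 range of 37.5 to 50.5 CPM lay across the gap. The estimate was -0.57 (SE 0.16, unadjusted p = 0.0046 and adjusted p = 0.404 by edgeR). The other 2 that did not overlap were Il1r1, the interleukin 1 receptor (-0.44, SE 0.21), and Il6st, the shared signalling chain of interleukin 6 family receptors (-0.43, SE 0.20). Tnfaip3, an inhibitor of NF-kB signalling, lay at 7.97, 6.75, 5.91 and 9.82 CPM and 16.1, 8.84, 14.0 and 14.1 CPM, with a fold change of -0.77 (SE 0.24, unadjusted p = 0.00847), and only Day 3 mouse 2 and Day 5 mouse 4 crossed between the groups.

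Slc12a1 and Umod, genes of the thick ascending limb, the segment that dilutes the urine, had lower estimates at Day 5, and neither was called. Among 24 tested genes of the thick limb, distal tubule and collecting duct none was called, 16 had a lower and 8 a higher estimate, 5 were lower and 2 higher at an unadjusted p under 0.05, and the median was -0.16, which turned to 0.06 without both mice 2. Slc12a1, the sodium-potassium-chloride cotransporter of the thick limb (ENSMUSG00000027202, chr2:125152505-125230002), lay at 655, 561, 594 and 675 CPM in Day 5 mice 1 to 4 and 954, 1701, 1462 and 623 CPM in Day 3 mice 1 to 4. The Day 5 values were close together, and Day 3 mouse 4 was the one Day 3 mouse among them. Its fold change was -0.89 (SE 0.28, unadjusted p = 0.00844 and adjusted p = 0.404 by edgeR), and the Day 0 mice lay at 217 to 810.0 CPM. Umod (uromodulin, secreted by the same cells) lay at 1706, 1133, 1608 and 1617 CPM and 2732, 3132, 2498 and 1517 CPM, again with Day 3 mouse 4 within the Day 5 values, at a fold change of -0.67 (SE 0.24, unadjusted p = 0.0185). Egf, made in the thick limb and distal tubule, had a fold change of -0.47 (SE 0.37), which was 0.02 without Day 3 mouse 2.

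Further along the nephron, Scnn1g, a subunit of the epithelial sodium channel, lay at 46.6, 30.04, 36.8 and 47.9 CPM at Day 5 and 58.6, 56.3, 53.2 and 57.8 CPM at Day 3, with no overlap and a fold change of -0.45 (SE 0.14, unadjusted p = 0.00941). The basolateral water channel gene Aqp3 did not overlap either (-0.55, SE 0.21), and the calcium channel gene Trpv5 had a fold change of -0.55 (SE 0.21). Foxi1, the transcription factor of intercalated cells, went the opposite way, at 38.8, 37.6, 47.0 and 56.6 CPM and 33.9, 32.5, 34.4 and 37.1 CPM with all Day 5 mice above all Day 3 mice and a fold change of 0.42 (SE 0.14, unadjusted p = 0.0124). Pvalb, a calcium-binding protein of the early distal convoluted tubule, had a fold change of 1.02 (SE 0.36, unadjusted p = 0.0171).

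Genes of the proximal tubule were balanced, with 19 higher and 17 lower estimates among 36 tested, a median of 0.01 and none at an unadjusted p under 0.05 in edgeR. The balance moved with the 2 libraries that stood apart, since the median was 0.22 without Day 5 mouse 2, 0.22 without Day 3 mouse 2 and 0.36 without both. Lrp2 (megalin), the endocytic receptor of the brush border, lay at 607, 530.2, 839.8 and 1495 CPM at Day 5 and 825, 2478, 1144 and 774 CPM at Day 3, with Day 3 mouse 2 the highest and Day 5 mouse 2 the lowest of the 8. Its fold change was -0.56 (SE 0.41), -0.06 without Day 3 mouse 2 and 0.10 without both. Ass1, an enzyme of arginine synthesis, split the Day 5 mice: mice 3 and 4 lay at 3543 and 3755 CPM and mice 1 and 2 at 1019 and 741 CPM, while the Day 3 mice lay at 719, 1719, 1003 and 1144 CPM. The fold change of Ass1 was 1.004 (SE 0.49, adjusted p = 0.445), with Day 5 mice 3 and 4 above all Day 3 mice and mice 1 and 2 within the Day 3 range. The phosphate transporter gene Slc34a1 and the organic anion transporter gene Slc22a6 had fold changes of 0.22 (SE 0.45, and 0.67 without Day 3 mouse 2) and 0.12 (SE 0.29).

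All 8 podocyte genes had a lower estimate at Day 5, from -0.54 to -0.11 with a median of -0.33, but none was called and 1 was at an unadjusted p under 0.05 (Ptpro, -0.54, SE 0.22). Of the 8, 6 were among the longest genes tested (over 5277 bases). There the median was -0.37 for these and -0.13 for all tested genes, and the part of gene length was not tested. Podxl (podocalyxin, the anionic coat protein of the foot processes) lay at 208, 165, 231 and 375 CPM at Day 5 and 344, 362, 328 and 317 CPM at Day 3, so that Day 5 mice 1 to 3 were below all Day 3 mice and Day 5 mouse 4 above them. Of 15 endothelial genes, 8 had lower and 7 higher estimates, with a median of -0.05. Flt1, a receptor for vascular endothelial growth factor, was the one endothelial gene at an unadjusted p under 0.05, at a fold change of -0.50 (SE 0.17) and with all Day 5 mice below all Day 3 mice.

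Among leukocyte markers, 13 of 20 tested had a higher estimate at Day 5, with a median of 0.23, and 2 were higher at an unadjusted p under 0.05, both of them subunits of complement C1q that macrophages make. C1qa lay at 40.4, 40.3, 35.1 and 22.5 CPM at Day 5 and 20.2, 18.0, 23.4 and 25.9 CPM at Day 3, with Day 5 mouse 4 within the Day 3 values and a fold change of 0.70 (SE 0.21, unadjusted p = 0.00746), and the Day 0 range was 27.7 to 123 CPM. C1qb had a fold change of 0.60 (SE 0.22). The general leukocyte gene Ptprc, the macrophage gene Adgre1 and the neutrophil gene S100a8 had fold changes of -0.19 (SE 0.30), -0.12 (SE 0.30) and 0.49 (SE 0.73).

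Matrix and fibroblast genes had a median fold change of 0.51 over 25 tested genes, 21 of them higher at Day 5, with 6 higher and 1 lower at an unadjusted p under 0.05 and none called. The value rested on Day 5 mouse 2, as the median was 0.08 without it. Col1a1, the main chain of type I collagen, lay at 53.1, 162, 61.2 and 45.7 CPM in Day 5 mice 1 to 4 and 43.1, 52.9, 44.8 and 33.7 CPM in Day 3 mice 1 to 4, with Day 5 mouse 2 far above all others and the remaining values overlapping. Its fold change was 0.94 (SE 0.38) with all mice and 0.30 without Day 5 mouse 2. Fn1 (fibronectin) went from 0.88 (SE 0.58) to -0.18 without that mouse. The erythroid genes depended on both libraries that stood apart, with a median of 3.68 over 6 tested genes, 0.40 without Day 5 mouse 2, 6.15 without Day 3 mouse 2 and 2.57 without both. Hba-a1, an alpha globin chain, lay at 8.83, 871, 48.4 and 13.5 CPM at Day 5 and 1.89, 46.8, 4.67 and 1.34 CPM at Day 3, and its fold change of 4.22 (SE 1.87) became 0.82 without Day 5 mouse 2 and 6.53 without Day 3 mouse 2. Apart from these mice, every Day 5 value of Hba-a1 was above every Day 3 value. The sum of the erythroid genes was 25.3 to 179 CPM at Day 3, 44.8 to 1959 CPM at Day 5 and 637 to 3621 CPM at Day 0, and its part in any other result was not tested.

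Genes of tissue that can be carried along with a kidney also differed between mice. The sum of 8 adrenal genes was 28.2 to 30.9 CPM in Day 3 mice 1 and 2, 1843 to 2232 CPM in Day 3 mice 3 and 4, and 558 to 1475 CPM in the 4 Day 5 mice, so the median fold change of 0.38 over 7 tested genes spans a split within Day 3 and was -0.03 without Day 3 mouse 2. Adipocyte genes summed to 656 to 1186 CPM at Day 3 and 684 to 2119 CPM at Day 5, with a median fold change of 0.47 over 8 genes, 2 of which were higher (Car3 and Cfd) and 1 lower (Ucp1) at an unadjusted p under 0.05. Hepatocyte genes summed to 68.8 to 528 CPM at Day 3, the highest in mouse 2, and 68.6 to 164 CPM at Day 5, with a median of -0.62 over 7 genes that turned to 0.48 without Day 3 mouse 2 and was -2.02 without Day 5 mouse 2. Exocrine pancreas genes summed to 62.0 to 124 CPM and 60.7 to 231 CPM (1 gene tested, Cela1, 0.61), and skeletal muscle genes to 4.11 to 12.2 CPM and 4.94 to 9.02 CPM (4 tested, median 0.40). Genes resembling ribosomal RNA summed to 14158 to 20671 CPM at Day 3 and 19478 to 47952 CPM at Day 5, the highest in mouse 2, with a median of 0.60 over 6 genes, which was 0.23 without Day 5 mouse 2. Lars2 of that list had a fold change of 0.85 (SE 0.27) without overlap, and 0.59 without that mouse. The part of these tissues and reads in the results was not tested.

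Nuclear respiratory chain genes had mostly higher estimates at Day 5, and the other metabolic lists were mixed, with no gene called. Of 30 nuclear genes of the respiratory chain tested, 27 had a higher estimate at Day 5, from -0.10 to 0.44 with a median of 0.24, or 0.37 without Day 5 mouse 2, and 1 was higher at an unadjusted p under 0.05 (Ndufs8, a subunit of complex I, 0.41). Of the 30, 20 were among the shortest genes tested (up to 2762 bases), where the median was 0.27 for these and 0.20 for all tested genes, and the part of gene length was not tested. Among genes of fatty acid oxidation and PPAR targets 19 of 29 had a lower estimate, with a median of -0.21, or -0.08 without Day 5 mouse 2 and -0.35 without Day 3 mouse 2, and 0 at an unadjusted p under 0.05 in edgeR. Cyp4a14, a fatty acid omega-hydroxylase induced through PPAR alpha, lay at 1467, 551, 883 and 953 CPM at Day 5 and 1778, 397, 1480.2 and 1884 CPM at Day 3, against 371 to 483 CPM at Day 0, with a fold change of -0.50 (SE 0.44) and -0.82 without Day 3 mouse 2. All 4 Day 5 mice were still above all Day 0 mice. Genes of oxidant defence and metallothioneins had 14 of 20 higher, a median of 0.21, or 0.35 without Day 5 mouse 2, and 1 in each direction at an unadjusted p under 0.05, the glutathione transferase Gstm1 at 0.53 and Gclc, the catalytic subunit of glutathione synthesis, at -0.53.

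The integrated stress response, complement and cell cycle lists gave mixed values. Of 17 tested stress response genes, 11 had a higher estimate with a median of 0.07, which was -0.04 without Day 3 mouse 2. Aldh1l2, a mitochondrial folate enzyme, was lower without overlap (-1.44, SE 0.61), and Nupr1, a stress-induced chromatin protein, had the highest estimate (1.38, SE 0.61, and 0.27 without Day 5 mouse 2). Complement and acute phase genes had 10 of 17 higher with a median of 0.29, which was 0.03 without Day 5 mouse 2 and 0.04 without Day 3 mouse 2. Of 32 tested cell cycle genes, 18 had a higher estimate with a median of 0.10, which was -0.05 without Day 3 mouse 2, and 1, the thymidine kinase gene Tk1, was at an unadjusted p under 0.05 (0.56, SE 0.22). Top2a, a topoisomerase of dividing cells, lay at 3.82, 1.45, 1.77 and 1.88 CPM at Day 5 and 5.94, 1.35, 3.87 and 2.65 CPM at Day 3, all within a few CPM, and Mki67 had a fold change of -0.10 (SE 0.37).

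**Figure D3:**
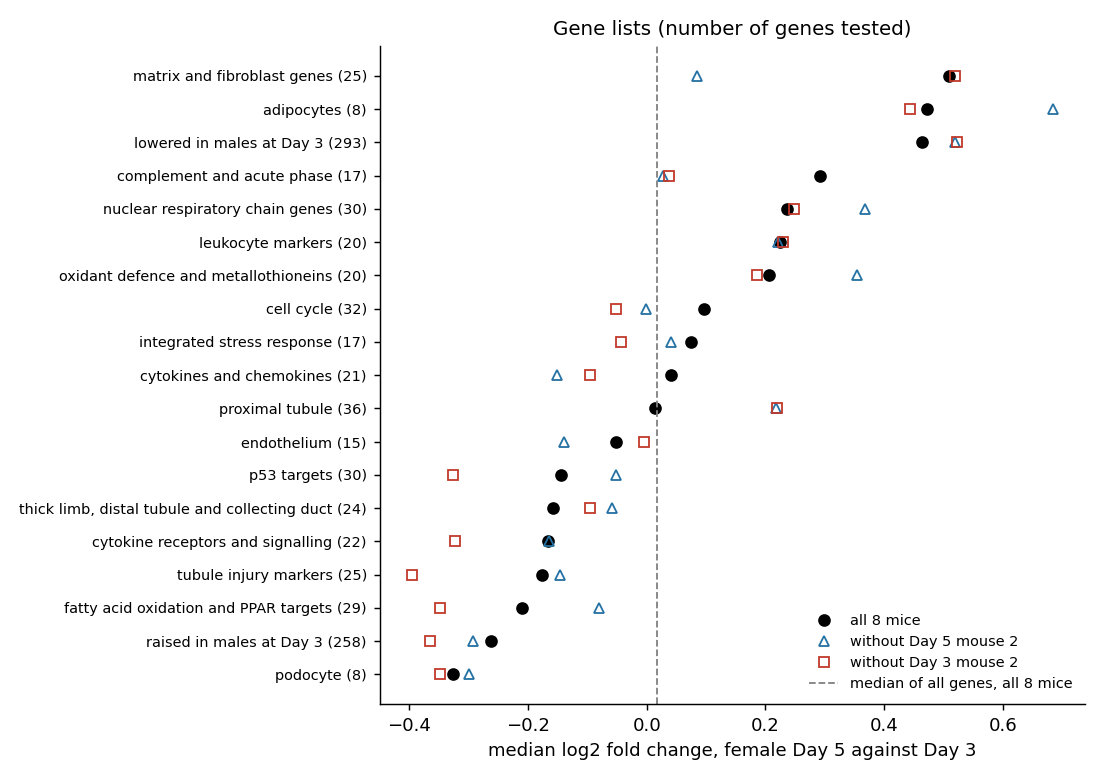
Median log2 fold change of Day 5 over Day 3 in each gene list with at least 8 tested genes (number in brackets), with all 8 mice (filled circles) and without Day 5 mouse 2 (open triangles) or Day 3 mouse 2 (open squares); the dashed line is the median of all genes, 0.02. The matrix list goes from 0.51 to 0.08 without Day 5 mouse 2, and the p53 list from -0.14 to -0.33 without Day 3 mouse 2.

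Since no gene passed the threshold, the leading genes were taken by the smallest unadjusted p among protein-coding genes whose groups did not overlap, 10 in each direction. The non-overlap belongs to this choice. All 20 missed the threshold, with an adjusted p of 0.404 by edgeR. The 10 lower at Day 5 were Lrrc8b, Slc39a10, Itgb6, Slc16a1, Edem3, Ranbp2, Atp13a3, Ugt8a, Hook1 and Itga6, with fold changes of -0.99 to -0.59. Lrrc8b, a subunit of volume-regulated anion channels (ENSMUSG00000070639, chr5:105415775-105490074), had the smallest p and lay at 38.0, 27.6, 28.2 and 39.5 CPM at Day 5 and 54.1, 68.4, 57.2 and 54.1 CPM at Day 3, at a fold change of -0.77 (SE 0.14, unadjusted p = 0.000258). Slc39a10, a zinc importer, lay at 20.3, 16.7, 11.2 and 20.2 CPM and 33.9, 35.0, 33.8 and 30.97 CPM. The Day 3 mice lay close together and the Day 5 mice spread out below them, at a fold change of -0.93 (SE 0.18).

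The epithelial integrin genes Itgb6, which with its partner activates transforming growth factor beta, and Itga6, a laminin receptor chain, were both in this group. Itgb6 lay at 64.3, 43.5, 58.4 and 56.5 CPM at Day 5 and 104, 128, 96.7 and 76.3 CPM at Day 3 (-0.82, SE 0.17), and Itga6 had a fold change of -0.82 (SE 0.19). Slc16a1, a lactate and pyruvate transporter, lay at 25.1, 16.1, 23.4 and 27.9 CPM at Day 5, 50.9, 42.8, 37.7 and 35.9 CPM at Day 3 and 65.2 to 95.6 CPM at Day 0, so that the 3 groups followed each other with no overlap (-0.82, SE 0.17).

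The 10 higher at Day 5 were Arl4d, Cuedc2, Gm2000, Rpl13a, Sh3bp1, Twf2, Ypel3, Zfp524, Ifi27l2a and Washc1, with fold changes of 0.54 to 1.10. Arl4d, a small GTPase, lay at 41.5, 42.9, 48.5 and 44.7 CPM at Day 5 and 33.7, 27.0, 25.5 and 30.2 CPM at Day 3 (0.65, SE 0.13). Cuedc2, a ubiquitin-binding protein, lay at 72.7, 91.1, 100.3 and 76.3 CPM and 52.0, 54.5, 56.3 and 57.2 CPM (0.67, SE 0.14). Both had tight Day 3 values and Day 5 values above them. Ifi27l2a, an interferon-inducible gene, lay at 69.9, 46.1, 91.7 and 42.8 CPM and 28.2, 29.8, 41.1 and 32.3 CPM (0.97, SE 0.24), with Day 5 mouse 4 above the highest Day 3 mouse by less than 2 CPM. Rpl13a, a ribosomal protein gene, and Gm2000 belong to families with many near-identical copies, so their counts are uncertain. DESeq2 called 14 of these 20 genes, against 0.121% higher and 0.0852% lower of all genes it tested. The 20 were chosen by their p on the same 8 libraries, so these calls are no separate evidence.

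**Figure D4:**
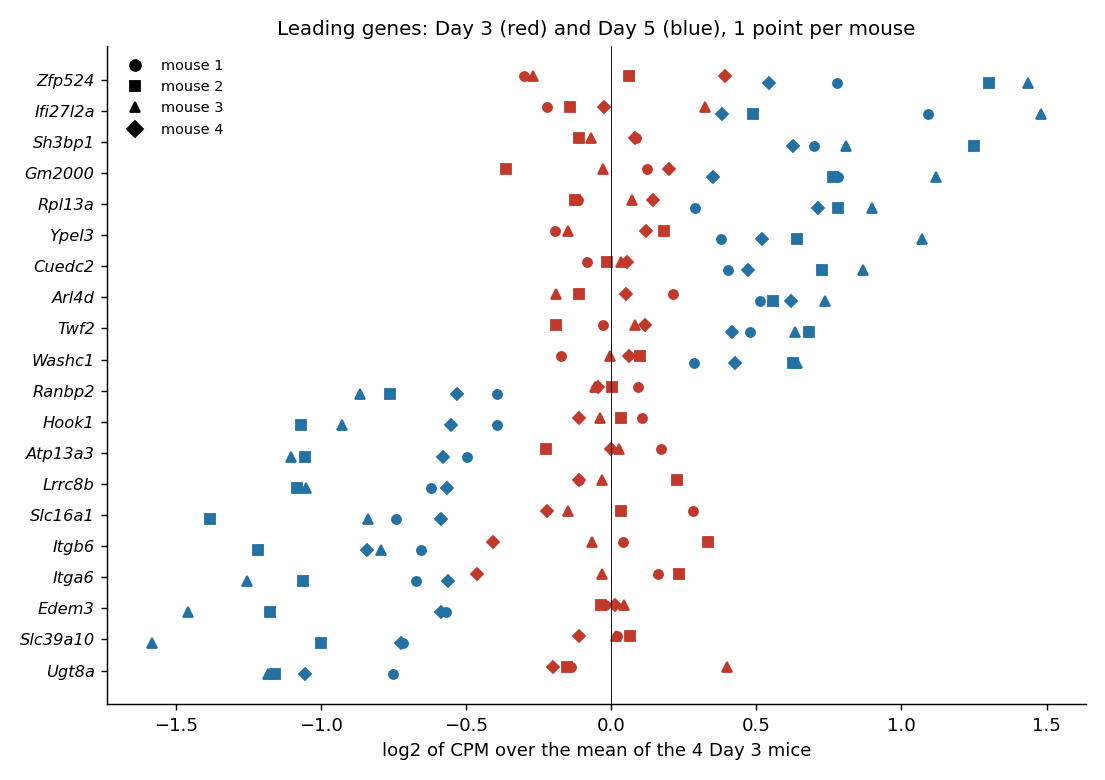
Each mouse's level of the 20 leading genes as log2 of its CPM over the mean of the 4 Day 3 mice (horizontal axis), Day 3 in red and Day 5 in blue, with the marker shape giving the mouse number. The groups do not overlap in any row because the genes were chosen so, and the fold changes run from -0.99 to 1.10.

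Genes chosen in other mice gave a comparison that the female libraries did not select. In males, 289 of 15890 tested genes were higher at Day 3 than Day 0 (1.82%) and 315 lower (1.98%), at an adjusted p under 0.05 by edgeR and an absolute log2 fold change over 1.5. Of the 258 raised genes that could be tested in females, 177 had a lower and 81 a higher estimate at Day 5 than at Day 3, the median was -0.26, 19 were lower and 6 higher at an unadjusted p under 0.05, and 18 had all Day 5 mice below all Day 3 mice (4.41% of all genes). Of the 293 lowered genes that could be tested, 250 had a higher and 43 a lower estimate, the median was 0.46, 92 were higher and 1 lower at an unadjusted p under 0.05, and 25 had all Day 5 mice above all Day 3 mice (2.84% of all genes). None of either list was called by edgeR, DESeq2 called 1 of the raised and 3 of the lowered genes, against 0.121% higher and 0.0852% lower of all genes it tested, and the median over all genes was 0.02. Without Day 5 mouse 2 the medians were -0.29 and 0.52, and without Day 3 mouse 2 they were -0.37 and 0.52.

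Gene length moved with the same comparison. The 5591 shortest genes, up to 2762 bases, had a median fold change of 0.20 with 647 higher at an unadjusted p under 0.05, the 5585 genes of middle length a median of 0.02, and the 5588 longest genes a median of -0.13 with 624 lower at an unadjusted p under 0.05. The genes lowered in males were short, with a median length of 1394 bases against 3869.5 for all tested genes, and 232 of the 293 were among the shortest. Those 232 had a median of 0.51 against 0.20 for all short genes, the 45 of middle length 0.31 and the 16 longest -0.10. The genes raised in males had a median length of 3903 bases, and their medians were -0.30, -0.25 and -0.20 from the shortest to the longest. In each library, the median log2 CPM of short genes minus that of long genes was -2.34 to -2.13 at Day 3, -2.18 to -1.61 at Day 5 and -2.32 to -1.31 at Day 0. The part of gene length in the lists' values was not tested.

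Examples from these lists were chosen after their values were seen. Naa10, the catalytic subunit of an N-terminal acetyltransferase, lowered in males, lay at 28.8, 25.5, 37.2 and 23.9 CPM in female Day 5 mice 1 to 4 and 17.2, 19.3, 17.7 and 21.1 CPM in Day 3 mice 1 to 4 without overlap (0.66, SE 0.16, unadjusted p = 0.00214). Scand1, a SCAN domain protein, also lowered in males, lay at 259.6, 249.7, 458 and 228 CPM and 172, 145, 162 and 231 CPM, with Day 3 mouse 4 among the Day 5 mice (0.79, SE 0.25). Selenow, a selenoprotein, Snrpd2, a core spliceosome protein, and Serf2 had fold changes of 0.85, 0.64 and 0.59. Of the genes raised in males, Piezo1, a mechanically gated ion channel, lay at 78.3, 57.4, 37.6 and 84.9 CPM at Day 5 and 146, 87.1, 119 and 86.8 CPM at Day 3 without overlap (-0.74, SE 0.26), and Fam208b, Cyyr1 and Pik3c2a had fold changes of -1.02, -1.07 and -0.74.

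**Figure D5:**
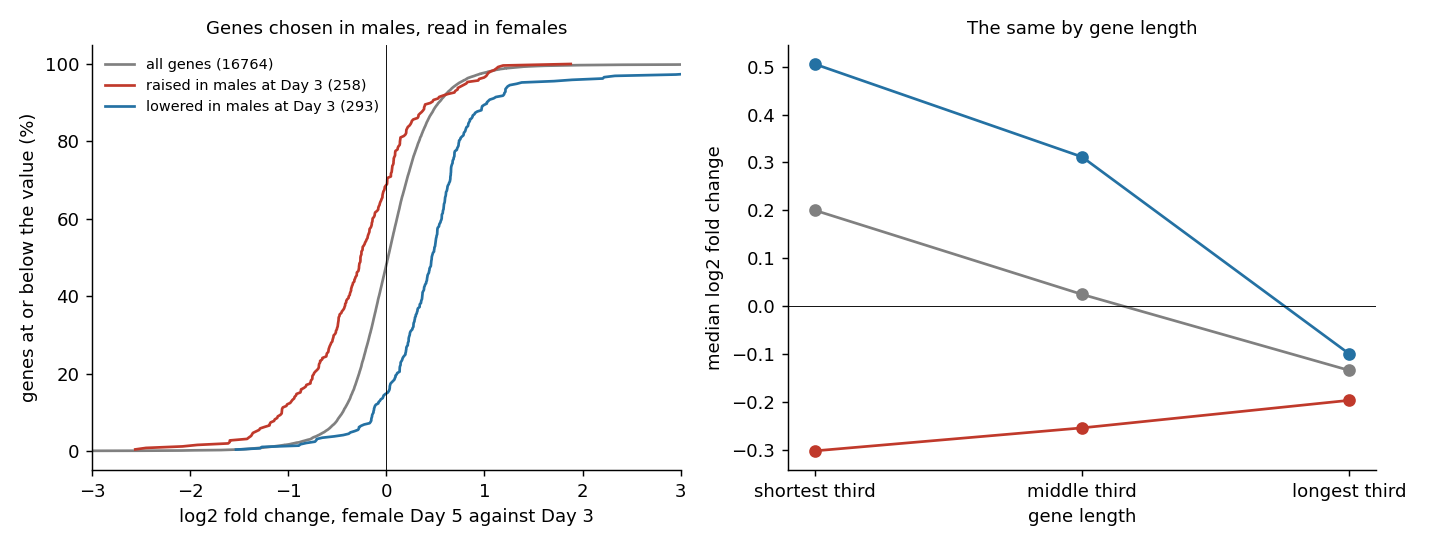
Left, cumulative share of genes (percent) at or below each log2 fold change of female Day 5 over Day 3, for all 16764 tested genes and for the 258 and 293 genes raised or lowered in males at Day 3; values beyond 3 in either direction are outside the axis. Right, the median fold change of the same 3 sets among the shortest, middle and longest genes, where the line of all genes runs from 0.20 to -0.13 and that of the genes lowered in males from 0.51 to -0.10.

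Comparisons with Day 0 depended strongly on single Day 0 mice. Day 0 mouse 3 stood apart, with 16233 genes counted against 22154 to 23701 in the other Day 0 mice, Day 0 mouse 2 held 15102 CPM of hepatocyte genes against 70.7 to 485 CPM, and all 4 held 5 to 221 counts of Y-linked genes although labelled female. Of 16358 genes tested, 32 were higher (0.196%) and 13 lower (0.0795%) at Day 5 than Day 0 at an adjusted p under 0.05 by edgeR, and without Day 5 mouse 2, 33 (0.196%) and 11 (0.0654%) of 16818. Without that mouse 23 of the 32 higher and 5 of the 13 lower genes were still called. At Day 3, against the same Day 0 mice, 206 of 16873 were higher (1.22%) and 569 lower (3.37%), and without Day 3 mouse 2, 232 (1.35%) and 312 (1.81%) of 17235. Leaving out Day 0 mouse 1, 2, 3 or 4 gave 7 (0.0419%), 26 (0.156%), 35 (0.207%) and 785 (4.74%) genes higher at Day 5, and 5 (0.03%), 4 (0.0239%), 15 (0.0887%) and 1228 (7.42%) lower. At Day 3 it gave 0 genes in either direction by edgeR without mouse 1, 2 or 3, with 4482, 3737 and 5230 at an unadjusted p under 0.05, and 3233 higher (18.7%) and 3523 lower (20.4%) without mouse 4. A call against Day 0 is therefore given only as that of the 4 Day 0 mice together. Both comparisons share the Day 0 libraries, so their values are given side by side only. The p53 list held 12 of the 32 genes higher at Day 5, namely Plk2, Cdkn1a, Gdf15, Ccng1, Mdm2, Trp53inp1, Aen, Psrc1, Eda2r, Phlda3, Zmat3 and Ddias. In the list 12 of 30 tested were thus called higher at Day 5, 10 without Day 5 mouse 2, and 13 at Day 3, 19 without Day 3 mouse 2. With 1 Day 0 mouse left out the counts were 3 to 20 at Day 5 and 0 to 20 at Day 3. The fold change over Day 0 was 4.21 at Day 3 and 3.87 at Day 5 for Cdkn1a (adjusted p = 0.0488 and 0.00454 by edgeR), and 2.45 and 2.52 for Plk2 (adjusted p = 0.0488 and 0.00206). With 1 Day 0 mouse left out, the fold changes at Day 5 ran from 3.68 to 4.10 for Cdkn1a and from 2.45 to 2.61 for Plk2, with adjusted p of 0.0232 or less by edgeR for both.

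Of the 25 injury markers 4 were called higher than Day 0 at Day 3 (1.22% of all genes) and 1 at Day 5 (0.196% of all genes). The counts were 5 at Day 3 without Day 3 mouse 2, 0 at Day 5 without Day 5 mouse 2, and 0 to 5 on both days with 1 Day 0 mouse left out. The 5 came without Day 0 mouse 4, where 18.7% of all genes were called higher at Day 3 and 4.74% at Day 5. Havcr1 was 5.87 above Day 0 at Day 3 (adjusted p = 0.0488 by edgeR) and 3.803 at Day 5 (adjusted p = 0.175), Krt20 was 6.19 (adjusted p = 0.0488) and 4.95 (adjusted p = 0.0821), and Lcn2 was 4.41 (adjusted p = 0.0488) and 3.98 (adjusted p = 0.0503). A call at 1 day and not at the other is not a difference between the days, which is what the direct comparison above tested. Lif, at 5.25 and 4.75, was called on both days (adjusted p = 0.0488 and 0.0275 by edgeR). At Day 5 the call was lost without Day 5 mouse 2 (fold change 4.73, adjusted p = 0.0668 by edgeR) and without Day 0 mouse 1 or 2. At Day 3 it was lost without Day 0 mouse 1, 2 or 3.

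Of the 32 genes higher at Day 5 than Day 0, 19 had an estimate below 0 from Day 3 to Day 5, against 8076 of all 16764 genes tested. Among the 32, 1, Plekhg6, a guanine nucleotide exchange factor, was at an unadjusted p under 0.05 in edgeR (0.45, SE 0.14). The 32 genes were called on the same Day 5 libraries that enter these fold changes, so the choice bears on their direction. Outside the p53 list they included, chosen after their values were seen, the drug efflux pump Abcb1b, the glucocorticoid-induced chaperone Fkbp5, the quinone reductase Nqo1 and the epoxide hydrolase Ephx1, with fold changes from Day 3 to Day 5 of -0.30, 0.08, 0.29 and 0.24, each smaller than its SE. Without Day 3 mouse 2 these were -0.63, -0.23, 0.03 and -0.09, so that Fkbp5 and Ephx1 changed sign. Among the 13 lower genes, Dio1, which converts thyroid hormone to its active form, lay at 33.3, 25.1, 34.8 and 30.9 CPM at Day 5, 34.1, 142, 37.7 and 33.5 CPM at Day 3 and 139 to 204 CPM at Day 0. Day 3 mouse 2 was at the Day 0 level and the other 7 injected mice well below it, and the fold change from Day 3 to Day 5 was -0.94 (SE 0.44) with that mouse and -0.16 without it. Tfrc, the transferrin receptor, lay at 35.2, 31.5, 21.5 and 26.8 CPM at Day 5, 52.9, 82.9, 45.2 and 42.4 CPM at Day 3 and 61.6 to 92.9 CPM at Day 0, with all Day 5 mice below all Day 3 mice (-0.92, SE 0.23, unadjusted p = 0.00216). Against Day 0 its fold change was -1.31 with and -1.38 without Day 5 mouse 2, where the call was lost (adjusted p = 0.0775 by edgeR), as it was without Day 0 mouse 1, 2 or 3.

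The same interval in males was tested against that in females in 1 fit with an interaction of sex and day. Of 17402 genes, 433 had a higher (2.49%) and 569 a lower (3.27%) fold change from Day 3 to Day 5 in females than in males at an adjusted p under 0.05 by edgeR. Of the 4 male Day 5 libraries, 3 held 78.9% to 79.8% of their counts on mitochondrial genes, and Xist, the transcript of the inactive X chromosome, had 4153 counts in the library labelled male Day 5 mouse 1, against its label, beside 387 counts of Y-linked genes, whereas the other 3 male Day 5 libraries held 59 to 260 counts of Xist and 447 to 545 of Y-linked genes. Without that library and female Day 5 mouse 2, 2930 of 17705 genes were higher (16.5%) and 2421 lower (13.7%), and leaving out 1 mouse at a time gave 246 to 3936 differences in all against 1002, so the number depended on single libraries. Of 121 genes named above with a test between the sexes, 12 differed. Some of the 121 were chosen by their p in the female comparison, whose libraries enter this test. Females had the lower fold change for Vim (0.49 in females and 1.92 in males, each sex fitted alone, difference -1.44 in the joint fit, adjusted p = 0.0358 by edgeR), Slc16a1 (-0.82 and 0.88, difference -1.70), Ifi27l2a (0.97 and 3.43, difference -2.46) and Scnn1g (-0.45 and 0.35, difference -0.80). The adipocyte genes Cfd, Car3 and Ucp1 had differences of -2.76, -2.09 and -4.42. Of the 8 adipocyte genes, 6 had a lower fold change in females than in males at an adjusted p under 0.05 by edgeR. The remaining differences were -1.30 for Aqp2, -1.18 for Krt7, -3.61 for Pvalb, -4.92 for S100a8 and, in the other direction, 3.14 for Slc22a6.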

How the data were processed

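The authors sequenced kidney RNA as 150-base paired reads and deposited raw read counts per gene, with gene coordinates that are those of GRCm38. The study gives GRCm38 as its reference, whereas the submitters' processing notes name GRCm39 (mm39), HTSeq and DESeq2; versions and strandedness are not given in the sources used here. The counts were not normalized. Samples were grouped by the sex and day labels. The 37 genes named mt- were removed, and 16764 genes that passed filterByExpr were fitted in edgeR 4.0.16 (R 4.3.3, TMM, robust quasi-likelihood) on the 8 libraries. Log2 CPM used a prior count of 2 and TMM factors over all 32 libraries. Calls used an adjusted p under 0.05. DESeq2 1.42.0 and limma 3.58.1 (voom with sample quality weights) served as alternatives, as did no filter, a filter of 10 counts in every library, DESeq2's size factors, mitochondrial genes kept, fits over more groups, blocking on the mouse number, and leaving out mice. Leaving out mice in the comparisons with Day 0, and removing copies of mitochondrial transcripts, were added after seeing the data. The deposited FPKM table was not used.

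The members, lists and rules were chosen with earlier results of these data known, so no list's direction is independent evidence. The genes named were 34 chosen for their role, the 10 leading protein-coding genes in each direction whose groups did not overlap and whose higher mean was at least 1 CPM, the 4 genes with the smallest p in each list, and others that the text gives as chosen after their values were seen. Promoters came from RefSeq (GRCm38.p6). Scripts for tests across genes were tested on simulated data. Precision is set by 4 mice a group and by the depth of each library. Intervals cover the spread between these mice only. Each library was a separate mouse, no 2 libraries were identical, and p-values are two-sided.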

Additional observations from a re-analysis of the deposited data

Results flagged for a closer look

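In 84 checks of a gene or list sum over the 4 mice of a female group, 10 had 1 mouse far from the other 3 (its gap to the nearest exceeding Dixon's critical share of the whole range). Chance gives about 1 in 20 for separate checks of items chosen without their values. Some genes checked here were chosen after their values were seen, and some checks overlap, as Hba-a1 is part of the erythroid sum. The count of 10 in 84 therefore cannot be set against that rate. At Day 5, mouse 2 was the outlying one for the summed erythroid genes (1959 CPM), Umod (1133 CPM, the lowest), Col1a1 (162 CPM) and Hba-a1 (871 CPM), and mouse 3 for Scand1 (458 CPM). At Day 3, mouse 2 was the outlying one each time, for the summed erythroid genes (179 CPM), Ccng1 (216 CPM, the lowest), Plk2 (13.4 CPM, the lowest), Hba-a1 (46.8 CPM) and Dio1 (142 CPM).

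Female and male fold changes from Day 3 to Day 5 differed at an adjusted p under 0.05 by edgeR's interaction test for 12 of the 121 named genes tested, with differences, female minus male, of -1.44 for Vim, -0.80 for Scnn1g, -1.70 for Slc16a1, -2.46 for Ifi27l2a, -1.30 for Aqp2, -2.09 for Car3, -2.76 for Cfd, -1.18 for Krt7, -3.61 for Pvalb, -4.92 for S100a8, -4.42 for Ucp1 and 3.14 for Slc22a6. Without female Day 5 mouse 2 and the library labelled male Day 5 mouse 1 they were -1.74, -0.60, -1.78, -2.62, -1.63, -2.11, -2.81, -1.36, -3.73, -5.31, -4.74 and 4.39 in the same order. All 12 were again at an adjusted p under 0.05 by edgeR, in a fit that called 16.5% of all genes higher and 13.7% lower. With all libraries these shares were 2.49% and 3.27%. Some of the 121 genes were chosen by their p in the female comparison, whose libraries enter this test. The 12 genes are therefore no independent evidence. Markers of adipocytes (Car3, Cfd, Ucp1) and of neutrophils (S100a8) were among the 12, and what these differences rest on was not tested.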

How the results depend on the processing

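With all 8 female libraries and edgeR the count of genes at an adjusted p under 0.05 was 0, and it stayed 0 with each mouse left out in turn (0 to 0), without both mice 2, with mitochondrial genes kept or their 7 copies removed, with DESeq2's size factors, without a filter, with the stricter filter, in limma voom and in fits over the 4 female or all 8 groups. DESeq2's Wald test called 29 genes, 11 of them at an absolute log2 fold change over 1.5. Of the 29, 14 were among the genes named by role, rank or list, and the rank was taken on the same libraries. Why DESeq2 called genes where edgeR called 0 was not tested. The mouse numbers do not pair the samples: the correlations of Day 5 mice 1 to 4 with their own number at Day 3 were 0.17, 0.16, -0.025 and -0.072, and the numbers name separate mice. With the mouse number as a replicate block, 1 gene was called, Hba-a1, which is also the count of named genes and of genes over 1.5 (log2 fold change 3.38, adjusted p = 0.0124 by edgeR), Cdkn1a turned to 0.072 and Psrc1 to 0.034.

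The count of genes that differed between the sexes was 1002 and moved to 2218 with DESeq2, 5671 with limma voom, 619 without a filter, 556 with the replicate block and 5351 without female Day 5 mouse 2 and the library labelled male Day 5 mouse 1. Leaving out 1 mouse gave 246 (male Day 3 mouse 2) to 3936 (the library labelled male Day 5 mouse 1), and each mouse but female Day 3 mouse 2 and female Day 5 mouse 1 moved the count by over 1.5 times. Against Day 0, leaving out 1 mouse gave 0 (Day 0 mouse 1, 2 or 3) to 6756 (Day 0 mouse 4) called genes at Day 3, against 775, and 12 (Day 0 mouse 1) to 2013 (Day 0 mouse 4) at Day 5, against 45, and the cause was not tested. The mitochondrial share differed by 11.1 to 34.0 percentage points with 1 mouse left out, the lowest without Day 5 mouse 2 and the highest without Day 5 mouse 4, where the exact permutation p was 0.0286.

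Among single genes, the estimates that changed sign were, in limma voom, Mki67 (0.31), Plk2 (-0.031), Psrc1 (0.047) and Slc22a6 (-0.024), and, without both mice 2, Actn3 (-0.011), Btg2 (-0.043), Egf (0.076), Fkbp5 (-0.0042), Lrp2 (0.099), Mki67 (0.030), Plk2 (-0.18) and Sox9 (-0.32). With 1 mouse left out, 23 genes changed sign, with ranges of Acta1 (-0.14 to 0.79), Actn3 (-0.0234 to 0.63), Ahsg (-2.36 to 1.03), Alas2 (-0.0134 to 3.91), Alb (-2.62 to 0.53), Btg2 (-0.19 to 0.39), Ccl6 (-0.20 to 1.01), Cyp11a1 (-0.0307 to 0.96), Cyp3a11 (-2.02 to 1.13), Egf (-0.70 to 0.0219), Ephx1 (-0.0934 to 0.42), Fkbp5 (-0.23 to 0.30), Fn1 (-0.18 to 1.12), Gdf15 (-0.18 to 0.48), Lcn2 (-0.89 to 0.35), Mki67 (-0.51 to 0.0603), Phlda3 (-0.13 to 0.38), Plk2 (-0.24 to 0.25), Psrc1 (-0.64 to 0.0269), Slc22a6 (-0.074 to 0.34), Slc34a1 (-0.10 to 0.67), Sox9 (-0.0649 to 0.60) and Timp1 (-0.17 to 0.49). Of these 30 changes of sign, 12 came without Day 3 mouse 2 and 5 without Day 5 mouse 2. Day 5 mouse 2 had the fewest counts outside the mitochondrial genome of the 8 libraries, 5340600. How far depth or the spread between 4 mice limits each result was not tested.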

Other observations

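Nr4a1, Dusp1, Zfp36 and Dbp had higher estimates at Day 5, chiefly through 2 of the 4 mice, and none was called. These 4 genes were chosen after their values were seen and stand for no group. Nr4a1, an immediate early nuclear receptor, lay at 33.5, 21.4, 99.5 and 117 CPM in Day 5 mice 1 to 4 and 19.3, 5.66, 17.7 and 31.9 CPM in Day 3 mice 1 to 4, with mice 3 and 4 far above the Day 3 mice and a log2 fold change of 1.88 (SE 0.60, unadjusted p = 0.0118 and adjusted p = 0.404 by edgeR). The phosphatase gene Dusp1 and the mRNA-destabilizing factor gene Zfp36 had fold changes of 1.03 (SE 0.34) and 1.06 (SE 0.40). Dbp, a transcription factor under control of the circadian clock, lay at 94.9, 119, 235 and 179.6 CPM and 81.3, 101, 79.8 and 101 CPM, again highest in mice 3 and 4 (0.83, SE 0.25). The Day 0 mice spread from 6.59 to 167 CPM for Nr4a1 and from 6.85 to 117 CPM for Dbp. The time of day of tissue collection is not given in the sources used here.

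Gapdh, a glycolytic enzyme often used as a reference gene, lay at 218, 14.3, 496 and 95.8 CPM in Day 5 mice 1 to 4, 5.80, 5.69, 26.4 and 17.0 CPM in Day 3 mice 1 to 4 and 278 to 959 CPM at Day 0, with a fold change of 3.93 (SE 1.01, adjusted p = 0.404 by edgeR, and 0.0449 by DESeq2). It has many near-identical pseudogenes, so its counts are uncertain. It was chosen after its values were seen.

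Removing genes named mt- left 7 nuclear genes whose transcripts share most of their sequence with mitochondrial transcripts (at least 50% of their words of 31 bases). They held 0.101% to 0.159% of the remaining counts at Day 3, and 0.853%, 6.21%, 0.385% and 0.0795% in Day 5 mice 1 to 4, in the order of the mitochondrial share. Of the 29 genes that DESeq2 called, 3 were such copies (Gm28437, Gm28661 and Gm29216). Without these genes edgeR's count at an adjusted p under 0.05 was still 0.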
